A study of Mus musculus with 6 samples.

Results

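The genes described here are 42 p53 targets and parts of the machinery of cell death in mouse jejunal epithelium, taken from a list of symbols that was drawn up with earlier results of these data known. Of the 42 genes, 39 were measured, among 19933 genes in all. Each was read by the probe set with the highest mean that names it alone. Trp53, which encodes p53 itself, the effector gene Bax and the kinase gene Ripk1 were not analysed here. The samples were 6 preparations of total epithelial cells from the jejunum, the stretch of small intestine after the duodenum, each hybridised to 1 Affymetrix Gene 1.0 ST array. In 3 of them, titled transgenic, the mice had the genotype TRE-MSI2::R26-M2rtTA, a tetracycline-responsive transgene for the RNA-binding protein MSI2 together with the M2rtTA transactivator at the Rosa26 locus. The 3 control mice had the genotype R26-M2rtTA, and so carried the same transactivator without the transgene. All 6 mice had doxycycline, which switches the transactivator on, in their drinking water for 24 hours. Rosa26 is active in most tissues, so the genotype does not restrict the transgene to the epithelium. Age, strain and sex are not given in the labels.

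The transcription factor p53 is held at a low level by the ubiquitin ligase MDM2 and its relative MDM4. When stress or DNA damage frees it, p53 switches on genes of growth arrest, DNA repair and apoptosis, the gene of its own inhibitor MDM2 among them. In the mitochondrial route to apoptosis, BH3-only proteins block the guardians of the BCL2 family or activate its effectors BAX and BAK, which open the outer mitochondrial membrane and lead to the APAF1 apoptosome and caspase-9. In the receptor route, FAS and the TRAIL receptor recruit FADD and caspase-8, and where caspase-8 is blocked RIPK3 and MLKL can carry out necroptosis. In the intestine p53 and the BH3-only protein PUMA are known for the death of crypt cells after irradiation.

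All values are log2 expression levels as normalized by the authors with RMA, and a difference is the transgenic mean minus the control mean with its standard error (SE) from limma. A gene rose or fell where its adjusted p, taken over all 19933 genes, was under 0.05. Msi2, the gene named in the transgene, did not separate the arrays by their labels. Msi2 had 11.23, 10.58 and 11.44 in the arrays labelled transgenic, against 11.30, 9.53 and 9.32 in those labelled control (difference 1.03 ± 0.55 SE, adjusted p = 0.257, and 1.66 with adjusted p = 0.00958 without control replicate 1). Its paralog Msi1 had 13.44, 12.82 and 13.53 in the transgenic arrays, against 7.20, 7.97 and 7.62 in the control arrays, a 50.7-fold rise (5.66 ± 0.26 SE, adjusted p = 0.000818). Directions here are therefore drawn between arrays by their labels. Control replicate 1 correlated with the other controls by 0.981 and 0.982 over all probe sets, where the other controls correlated with each other by 0.996. With transgenic replicates 1, 2 and 3 control replicate 1 correlated by 0.9658, 0.9766 and 0.9672, and the other controls by 0.9472 to 0.9728. From Xist and the Y-linked genes, transgenic replicate 3 and control replicates 1 and 3 were female and the other 3 animals male. None of 12 epithelial markers lay at the level of absent transcripts on any array, a level read as 4.07 to 5.06 from Xist in males and Y-linked genes in females. Of these 12 markers 3 rose and 3 fell, 25% each, where 8.97% of all genes rose and 9.65% fell. Krt18 rose by 1.47 ± 0.12, Tspan8 by 0.48 ± 0.12 and Cdh1 by 0.32 ± 0.08. Cdx2 fell by 0.82, Vil1 by 0.80 and Cdx1 by 0.53 (SE 0.15, 0.21 and 0.13). Of 6 goblet cell and 5 Paneth cell markers all had lower means in the transgenic arrays and none passed, at medians of -0.57 and -0.25, although a replicate block called 2 goblet cell markers lower. T cells and intraepithelial lymphocytes had 13 measured markers, of which 11 fell and 2 did not pass. The share that fell was 84.6%, where 9.65% of all genes fell, and a sex block left 7 of these calls. The summed level of the 13 markers on the linear scale was 1255 to 2844 in the transgenic arrays and 6133 to 9628 in the controls. Cd3d, Cd160 and Cd2 reached the level of absent transcripts, on 2, 1 and 1 of the 6 arrays. None of 6 markers of B and plasma cells or 10 of stroma and vessels passed, and of 9 myeloid markers 1 rose and 1 fell, 11.1% each. The part of these shifts in the members' values was not tested. In such bulk preparations fewer cells of a type and less RNA per cell cannot be told apart.

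In the arrays labelled transgenic, 11 of the 39 genes rose and 3 fell. Those that rose were the BH3-only gene Pmaip1, the kinase genes Plk2 and Plk3, Gadd45a, Aen, Zmat3, the p53 inhibitor gene Mdm2, the guardian gene Mcl1, the TRAIL receptor gene Tnfrsf10b, the caspase inhibitor gene Xiap and the necroptosis kinase gene Ripk3. The 3 that fell were the effector caspase gene Casp6, the membrane-opening effector gene Bak1 and the BH3-only gene Bad. The risers were 28.2% of the measured members, where 8.97% of all genes rose, and the fallers 7.69%, where 9.65% of all genes fell and 18.6% were called in either direction. The share that fell was thus near the background. The median difference of the members was 0.36, against 0.02 for all genes. Of all 19933 genes 3771 lay at or below the highest level of absent transcripts on every array, and none of the members did. The members were also chosen with earlier results of these data known, so the shares are a description. The groups did not overlap for 19 higher members and 4 lower ones, and 19.5% of all genes were higher and 17.5% lower without overlap. For each of these 23 members an exact permutation test of the 6 arrays gave the smallest p that 3 against 3 allows, 0.1. Groups without overlap always give this value, so the test adds nothing to the lack of overlap.

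**Figure D1:**
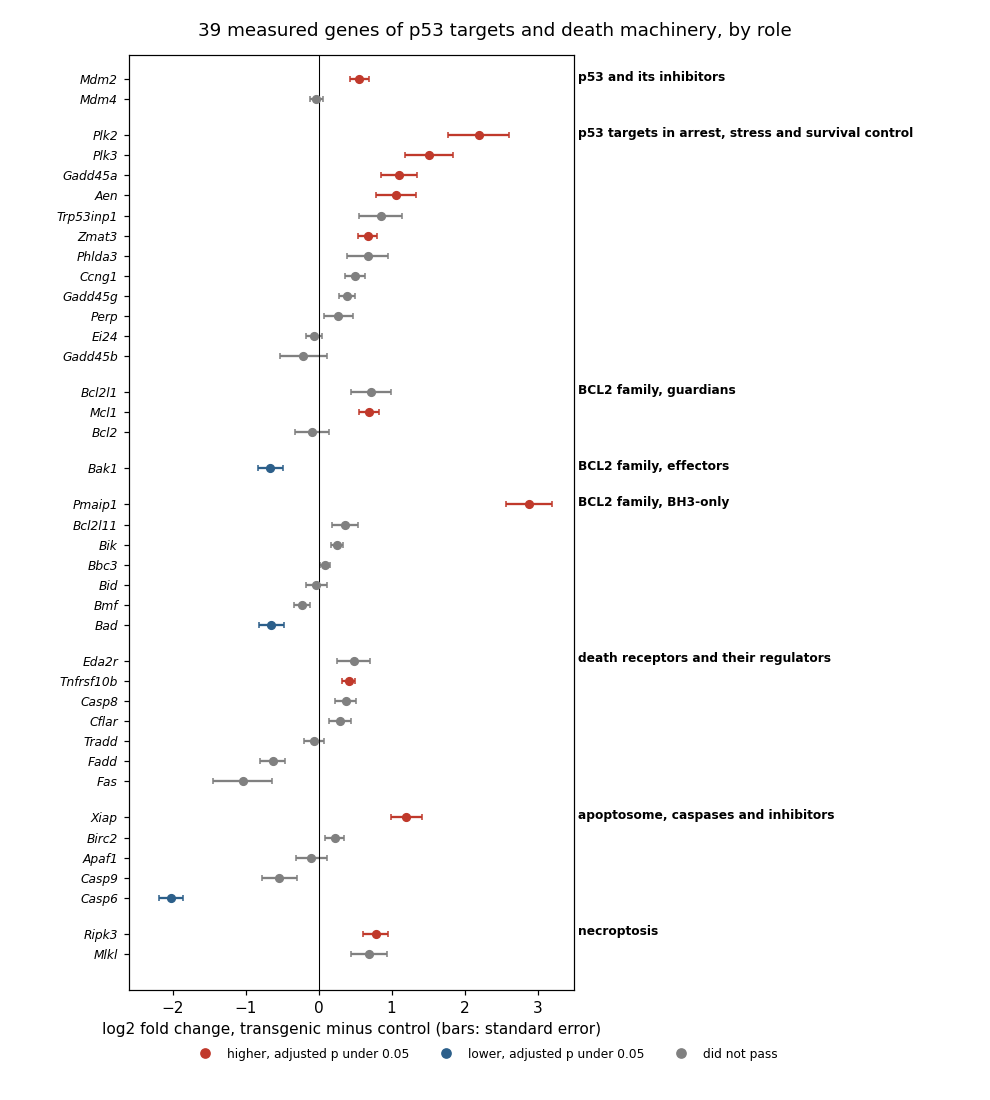
The log2 difference, transgenic minus control, is plotted for each of the 39 measured genes, grouped by role down the page, with bars of 1 standard error. Red points rose, blue points fell and grey points did not pass; Pmaip1 at 2.88 and Casp6 at -2.02 lie farthest from 0.

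The calls of Pmaip1 and Casp6 held in each of the 6 fits that left out 1 array. All 12 other calls were lost when any one of transgenic replicate 1, transgenic replicate 3 and control replicate 2 was left out, where 6.87%, 5.39% and 4.9% of all genes were called. Without control replicate 3 Xiap was called beside them, with 4.78% of all genes. Without transgenic replicate 2, 15 members rose and Casp6 alone fell, with 20.5% of all genes called, and the calls of Plk3, Ripk3, Bak1 and Bad were lost. Without control replicate 1, 13 rose and 7 fell, where 13.4% of all genes rose and 14.4% fell. With the replicate number as a block 13 rose and 4 fell, where 12.7% of all genes rose and 13.1% fell. Blocking on the animals' sex left 5 genes called higher, namely Pmaip1, Plk2, Gadd45a, Mcl1 and Xiap, and Casp6 fell, where 5.36% of all genes rose and 5.47% fell. Fits with fewer arrays have less power in general, and the part of power in these changes was not tested.

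Mdm2, the ubiquitin ligase that p53 induces and that marks p53 for destruction, rose in the arrays labelled transgenic. It had 9.84, 9.81 and 10.10 in the transgenic arrays, against 9.13, 9.49 and 9.45 in the control arrays. The groups did not overlap, and the difference was 0.56 ± 0.13 (SE), a 1.48-fold rise (adjusted p = 0.0343, and up to 0.112 with 1 array left out, without transgenic replicate 3). Mdm4, whose protein binds p53 and blocks its activity, had 9.50, 9.25 and 9.37 in the transgenic arrays and 9.42, 9.32 and 9.47 in the controls. Its groups overlapped fully, and the difference of -0.03 ± 0.09 (SE) did not pass (adjusted p = 0.872).

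Of 12 genes of growth arrest, stress and survival control, 5 rose and none fell. The share that rose was 41.7%, where 8.97% of all genes rose and 9.65% fell. The median difference of the 12 genes was 0.67, and 10 had higher means in the transgenic arrays. The largest rise was that of Plk2, a Polo-like kinase gene induced by p53 and by growth signals. Plk2 had 8.21, 6.88 and 8.50 in the transgenic arrays, against 5.88, 5.70 and 5.44 in the control arrays. The controls lay close together, while transgenic replicate 2 stood well below the other arrays of its group. The difference was 2.19 ± 0.42 (SE), or 4.56-fold (adjusted p = 0.0204, and up to 0.0852 without control replicate 3). Its relative Plk3, a kinase of the stress response, had 9.65, 9.89 and 10.14 in the transgenic arrays, against 9.11, 8.18 and 7.85 in the control arrays. Control replicate 1 was the highest control and still lay below every transgenic array. Plk3 rose by 1.51 ± 0.33 (SE; adjusted p = 0.0285, and up to 0.108 without transgenic replicate 3).

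The GADD45 proteins bind cell cycle and stress kinases and take part in DNA repair and demethylation, and of their 3 genes Gadd45a rose. Gadd45a had 10.08, 9.91 and 10.64 in the transgenic arrays, against 9.51, 8.91 and 8.90 in the control arrays, with control replicate 1 nearest to the other group. The difference was 1.10 ± 0.25 (SE), or 2.14-fold (adjusted p = 0.0313, and up to 0.116 without control replicate 3). Gadd45g had 8.28, 7.93 and 8.21 in the transgenic arrays and 7.68, 7.84 and 7.73 in the controls. These groups did not overlap either, but the difference of 0.39 ± 0.11 (SE) did not pass (adjusted p = 0.0617). Gadd45b had 7.48, 8.57 and 7.58 in the transgenic arrays and 8.25, 8.27 and 7.76 in the controls, at -0.21 ± 0.32 (SE; adjusted p = 0.704). Transgenic replicate 2 held both the highest Gadd45b and the lowest Gadd45a value of its group. Whether the 3 genes differed in their change was not tested.

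Aen, an exonuclease gene that p53 induces in apoptosis, and Zmat3, an RNA-binding zinc finger gene among the regular p53 targets, rose as well. Aen had 8.85, 8.24 and 8.62 in the transgenic arrays, against 8.06, 7.08 and 7.40 in the control arrays. The nearest values of the groups were those of transgenic replicate 2 and control replicate 1, and the difference was 1.06 ± 0.28 (SE; adjusted p = 0.0484, and up to 0.155 without control replicate 3). Zmat3 had 7.83, 7.43 and 7.60 in the transgenic arrays, against 6.81, 7.07 and 6.98 in the control arrays. Both groups were narrow and apart, by 0.67 ± 0.13 (SE; adjusted p = 0.021, and up to 0.0789 without control replicate 3).

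Ccng1 and Trp53inp1 did not pass with group as the only term, but did with the replicate number as a block. Ccng1, the cyclin G1 gene and a long-known p53 target, had 11.83, 11.54 and 11.87 in the transgenic arrays and 11.03, 11.29 and 11.40 in the controls. The groups did not overlap, and the difference was 0.50 ± 0.14 (SE; adjusted p = 0.0523, and 0.0487 with the replicate block). Trp53inp1, a stress protein gene that p53 induces, had 10.07, 9.21 and 9.95 in the transgenic arrays and 9.17, 8.45 and 9.07 in the controls. In each group replicate 2 was the lowest, and the difference was 0.85 ± 0.29 (SE; adjusted p = 0.0941, and 0.00569 with the replicate block). Phlda3, whose protein restrains AKT, had 7.51, 6.53 and 7.55 in the transgenic arrays and 6.60, 6.41 and 6.57 in the controls. Transgenic replicate 2 lay within the controls, and the difference over all 6 arrays did not pass (0.67 ± 0.28 SE, adjusted p = 0.157). Leaving that array out gave an adjusted p of 0.00405, the only such fit that called Phlda3, with up to 0.385 without transgenic replicate 3. The desmosome-associated gene Perp, at 0.27 ± 0.20, and the endoplasmic reticulum gene Ei24, at -0.06 ± 0.11 (SE), did not pass (adjusted p = 0.415 and 0.778).

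**Figure D2:**
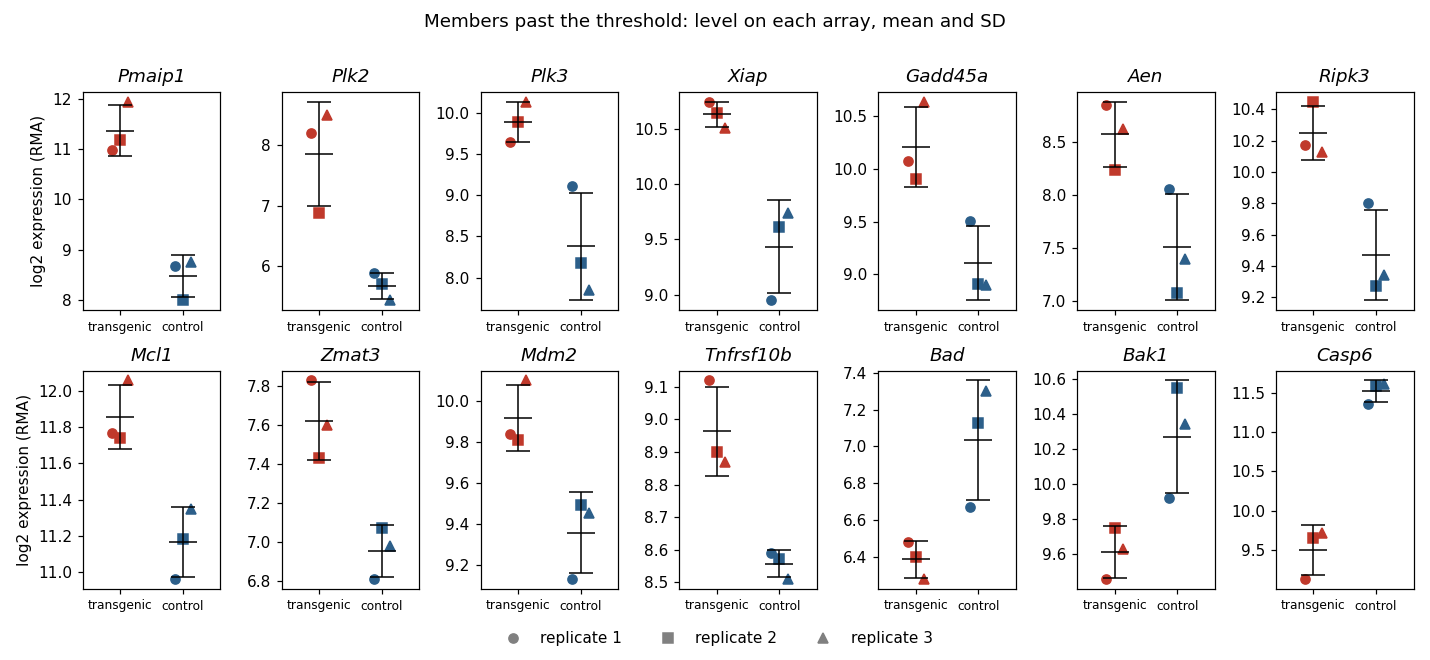
Log2 expression levels of the 14 members past the threshold are plotted for each array, transgenic in red and control in blue, with a marker for each replicate number and with the mean and SD of each group. Each panel has its own axis, which does not start at 0. The groups do not overlap in any panel, and Plk2 shows transgenic replicate 2 at 6.88, below 8.21 and 8.50.

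The regions before the start sites were searched on both strands for the p53 half-site, the motif that p53 binds in pairs, for the cyclic AMP response element TGACGTCA, for the AP-1 motif TGANTCA and for TGATGNAA, a motif of ATF4. The regions ran from 250 bases before to 50 bases after a RefSeq start site on GRCm38.p6, and 35 of the 42 genes had 1 or more, 49 regions in all. A p53 half-site lay in 10 of the 49 regions, those of 9 genes, and in 8.36% of all 32851 regions. The regions of Aen overlap and share the same match, which is counted in each. Of the 9 genes, Mdm2, Gadd45a and Aen rose, and Ccng1, Ei24, Bmf and Birc2 did not pass. The remaining genes, Trp53 and Bax, were not analysed. Among all measured members 28.2% rose, where 8.97% of all genes did. No half-site was found for the other members that rose, and not every member had a region to search. The response element lay in the regions of Plk2 and Birc2 and in 1.79% of all. AP-1 motifs were found for Fas and Mdm4 (7.81% of all regions), and the ATF4 motif for Gadd45g (3.97% of all). The 250 bases before the start are shown for 3 genes that rose with a p53 half-site there, Mdm2, Gadd45a and Aen, for Ccng1 and Ei24, which have one and did not pass, and for Plk2 with its response element. For Aen this is the second annotated start site. Sequences run 5′ to 3′ along the gene, and capitals mark the matched bases.
Mdm2, chr10:117710759-117711008, minus strand: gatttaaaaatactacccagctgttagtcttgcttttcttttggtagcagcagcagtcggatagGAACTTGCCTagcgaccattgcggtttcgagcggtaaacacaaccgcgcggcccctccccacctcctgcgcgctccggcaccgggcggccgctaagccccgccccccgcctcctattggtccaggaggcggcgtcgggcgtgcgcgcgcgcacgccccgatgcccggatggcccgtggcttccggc
Gadd45a, chr6:67037408-67037657, minus strand: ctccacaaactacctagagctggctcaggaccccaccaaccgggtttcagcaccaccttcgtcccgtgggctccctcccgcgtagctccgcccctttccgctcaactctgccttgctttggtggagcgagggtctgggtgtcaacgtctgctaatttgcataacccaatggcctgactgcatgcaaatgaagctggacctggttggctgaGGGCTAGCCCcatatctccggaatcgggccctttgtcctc
Aen, chr7:78895808-78896057, plus strand: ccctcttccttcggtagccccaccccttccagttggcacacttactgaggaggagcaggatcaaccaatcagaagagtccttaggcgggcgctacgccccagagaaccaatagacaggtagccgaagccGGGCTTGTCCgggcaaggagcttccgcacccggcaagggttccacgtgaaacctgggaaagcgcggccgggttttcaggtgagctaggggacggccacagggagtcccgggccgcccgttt
Ccng1, chr11:40755287-40755536, minus strand: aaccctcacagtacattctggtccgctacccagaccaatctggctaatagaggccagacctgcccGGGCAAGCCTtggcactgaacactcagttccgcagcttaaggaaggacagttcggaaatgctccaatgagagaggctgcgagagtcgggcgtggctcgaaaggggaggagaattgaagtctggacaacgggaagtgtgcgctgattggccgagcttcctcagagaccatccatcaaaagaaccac
Ei24, chr9:36797335-36797584, minus strand: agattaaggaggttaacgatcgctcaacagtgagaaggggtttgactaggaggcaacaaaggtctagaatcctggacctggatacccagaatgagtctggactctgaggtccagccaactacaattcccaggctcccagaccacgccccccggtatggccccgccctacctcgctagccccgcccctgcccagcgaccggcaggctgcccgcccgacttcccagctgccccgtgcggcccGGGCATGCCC
Plk2, chr13:110394794-110395043, plus strand: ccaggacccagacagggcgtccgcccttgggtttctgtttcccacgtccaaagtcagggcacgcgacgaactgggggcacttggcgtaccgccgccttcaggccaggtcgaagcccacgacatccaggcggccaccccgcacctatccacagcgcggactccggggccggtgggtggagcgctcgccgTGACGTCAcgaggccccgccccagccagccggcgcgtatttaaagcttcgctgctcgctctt
The half-site began 186 bases before the start in Mdm2, 40 in Gadd45a, 121 in Aen, 185 in Ccng1 and 10 in Ei24, and the response element of Plk2 began 62 bases before it. Genes that rose and genes that did not pass both held the half-site: Ei24 had a match directly at its start and a difference of -0.06. A match is a run of letters and not a measured binding site.

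In the BCL2 family 2 of 11 measured genes rose and 2 fell, with a median difference of 0.09. These are shares of 18.2% each, where 8.97% of all genes rose and 9.65% fell. The gene that rose most of all 39 was Pmaip1, which encodes the BH3-only protein NOXA, an antagonist of the guardian MCL1. Pmaip1 had 10.97, 11.18 and 11.94 in the transgenic arrays, against 8.68, 8.0 and 8.76 in the control arrays. The lowest transgenic array lay far above the highest control. The difference was 2.88 ± 0.31 (SE), or 7.38-fold (adjusted p = 0.00482), and stayed between 2.60 and 3.08 with each array left out. It was the only one of 7 BH3-only genes that rose, or 14.3%, where 8.97% of all genes rose.

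Bbc3, the gene of PUMA, had 5.52, 5.57 and 5.60 in the transgenic arrays, against 5.51, 5.39 and 5.52 in the control arrays. These are dim values close above the level of absent transcripts, where RMA compresses differences, and the difference was 0.09 ± 0.07 (SE; adjusted p = 0.483). Bad, a BH3-only gene whose protein is held inactive by growth factor signals, had 6.48, 6.4 and 6.28 in the transgenic arrays, against 6.67, 7.13 and 7.30 in the control arrays. It fell by 0.65, with control replicate 1 nearest to the other group (SE 0.17, adjusted p = 0.0478, and 0.055 with the replicate block and up to 0.156 without transgenic replicate 3). Of the other BH3-only genes, Bcl2l11, which encodes BIM, was at 0.36 ± 0.18 and Bik at 0.25 ± 0.08 (SE; adjusted p = 0.234 and 0.0794). Bid, which caspase-8 cleaves, was at -0.03 ± 0.14 and Bmf at -0.23 ± 0.11 (SE; adjusted p = 0.908 and 0.22).

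Among the guardians, Mcl1, the short-lived protein that NOXA binds, rose. Mcl1 had 11.77, 11.74 and 12.06 in the transgenic arrays, against 10.96, 11.18 and 11.35 in the control arrays. The difference was 0.69 ± 0.14 (SE), or 1.62-fold (adjusted p = 0.022, and up to 0.0818 without control replicate 2). Bcl2l1, the gene of BCL-XL, had 9.14, 9.08 and 9.08 in the transgenic arrays, against 7.71, 8.69 and 8.73 in the control arrays. Control replicate 1 stood well below the other controls, and the difference of 0.72 ± 0.27 (SE) missed the threshold (adjusted p = 0.126). Leaving that array out gave an adjusted p of 0.0172, the only such fit that called Bcl2l1, with up to 0.268 without transgenic replicate 1. Bcl2 itself had 7.96, 7.73 and 8.08 in the transgenic arrays and 8.50, 7.67 and 7.85 in the controls. The groups overlapped, and the difference was -0.09 ± 0.23 (SE; adjusted p = 0.844). The effector gene Bak1 fell: it had 9.46, 9.75 and 9.63 in the transgenic arrays, against 9.92, 10.55 and 10.34 in the control arrays. The difference was -0.66 ± 0.17 (SE; adjusted p = 0.0479, and up to 0.153 without control replicate 3).

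Of 7 measured genes of death receptors and their regulators, 1 rose and none fell, with a median difference of 0.29. The share that rose was 14.3%, where 8.97% of all genes rose and 9.65% fell. Tnfrsf10b, the mouse receptor of the death ligand TRAIL and a p53 target, had 9.12, 8.90 and 8.87 in the transgenic arrays, against 8.59, 8.57 and 8.51 in the control arrays. The rise was small but clear of the narrow controls, at 0.41 ± 0.09 (SE), or 1.33-fold (adjusted p = 0.0308, and up to 0.113 without control replicate 3). Fas, the other death receptor that p53 induces, had 5.79, 6.67 and 7.02 in the transgenic arrays, against 6.91, 7.80 and 7.91 in the control arrays. Replicate 1 was the lowest array in both groups, and transgenic replicate 3 lay above control replicate 1. The difference of -1.04 ± 0.40 (SE) missed the threshold (adjusted p = 0.124). The fit with the replicate number as a block gave an adjusted p of 0.00501, and leaving out control replicate 1 gave 0.0407. No other fit with 1 array left out called Fas, and the adjusted p was up to 0.323 without control replicate 3. T cells express Fas too, and their markers were lower in the same arrays, with summed levels of 1255 to 2844 against 6133 to 9628; their part in these values was not tested.

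Fadd, the adaptor that joins the receptors to caspase-8, had 7.48, 7.39 and 7.41 in the transgenic arrays, against 7.70, 8.07 and 8.39 in the control arrays. The groups did not overlap, and the difference of -0.63 ± 0.17 (SE) missed the threshold (adjusted p = 0.0543, 0.0489 under the replicate block and 0.0075 when control replicate 1 was left out). No other fit with 1 array left out called Fadd, and the adjusted p was up to 0.158 without transgenic replicate 3. Casp8, the initiator caspase gene of the receptor route, had 12.12, 12.31 and 12.23 in the transgenic arrays, against 11.57, 11.93 and 12.06 in the control arrays. These groups lay side by side without overlap, and the difference was 0.37 ± 0.14 (SE; adjusted p = 0.128). Cflar, which encodes the caspase-8 inhibitor FLIP, was at 0.29 ± 0.15 in the probe set used (SE; adjusted p = 0.237), and its 2 other probe sets were 0.58 and 0.55 higher in the transgenic arrays. The adaptor gene Tradd was at -0.06 ± 0.14 (SE; adjusted p = 0.813). Eda2r, an ectodysplasin receptor gene that p53 induces, had 5.39, 4.47 and 4.98 in the transgenic arrays and 4.43, 4.54 and 4.42 in the controls. It lay at the level of absent transcripts on 5 of the 6 arrays and did not pass (adjusted p = 0.196).

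Casp6, an executioner caspase gene, fell most of the 39 genes. It had 9.13, 9.65 and 9.71 in the transgenic arrays, against 11.36, 11.59 and 11.61 in the control arrays. The difference of -2.02 ± 0.17 (SE), or 4.07-fold lower, left the groups far apart (adjusted p = 0.00272) and stayed between -2.13 and -1.84 with each array left out. In the caspase cascade above it, Casp9, the initiator caspase gene of the mitochondrial route, had 7.65, 7.62 and 7.81 in the transgenic arrays, against 7.68, 8.51 and 8.50 in the control arrays. Control replicate 1 lay within the other group, and Casp9 missed the threshold at -0.54 ± 0.24 (SE; adjusted p = 0.174). Leaving that array out gave an adjusted p of 0.00444, the only such fit that called Casp9, with up to 0.412 without control replicate 3. Apaf1, the scaffold of the apoptosome, was at -0.10 ± 0.21 (SE; adjusted p = 0.798).

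Xiap, which encodes an inhibitor that binds caspases directly, rose. Xiap had 10.74, 10.64 and 10.51 in the transgenic arrays, against 8.95, 9.61 and 9.74 in the control arrays. The transgenic arrays lay close together and well above every control, and the difference was 1.20 ± 0.21 (SE), or 2.30-fold (adjusted p = 0.017, and up to 0.0629 without transgenic replicate 1). The related inhibitor gene Birc2, a ubiquitin ligase of TNF receptor signalling, was at 0.22 ± 0.13 (SE; adjusted p = 0.282), and its other probe set was 0.09 higher in the transgenic arrays.

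Both measured necroptosis genes had higher means in the arrays labelled transgenic, as did 10812 of all 19933 genes. Of the 2 genes Ripk3 passed, a share of 50%, where 8.97% of all genes rose. With sex as a block neither passed (adjusted p = 0.0642 for Ripk3 and 0.144 for Mlkl). Ripk3, the kinase that starts necroptosis, had 10.17, 10.45 and 10.13 in the transgenic arrays, against 9.80, 9.27 and 9.34 in the control arrays, and rose by 0.78 ± 0.17 (SE; adjusted p = 0.0284, and up to 0.108 without control replicate 3). Mlkl, the pore-forming protein that RIPK3 phosphorylates, had 9.12, 9.02 and 9.14 in the transgenic arrays, against 9.0, 8.16 and 8.06 in the control arrays. Control replicate 1 stood with the transgenic arrays, and Mlkl missed the threshold at 0.69 ± 0.25 (SE; adjusted p = 0.113). Leaving that array out gave an adjusted p of 0.00274, the only such fit that called Mlkl, with up to 0.3 without control replicate 3.

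Arrays of 1 group differed among themselves in a pattern that several genes shared. Transgenic replicate 2 was the lowest array of its group for 23 of the 39 genes and for 9 of the 12 arrest and stress genes, where 43.9% of all genes had their lowest value there. Relative to the control mean, the median of these 12 genes was 0.92 and 0.83 in transgenic replicates 1 and 3 and 0.40 in replicate 2. Plk2, Phlda3, Trp53inp1 and Bcl2l11 showed the largest gaps below both other transgenic arrays. Control replicate 1 lay over 0.5 outside the range of the other controls for 9 of the 39 genes, where 14.0% of all genes did. It was above the other controls in Plk3, Aen, Gadd45a, Bcl2 and Mlkl and below them in Bcl2l1, Fas, Casp9 and Xiap.

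**Figure D3:**
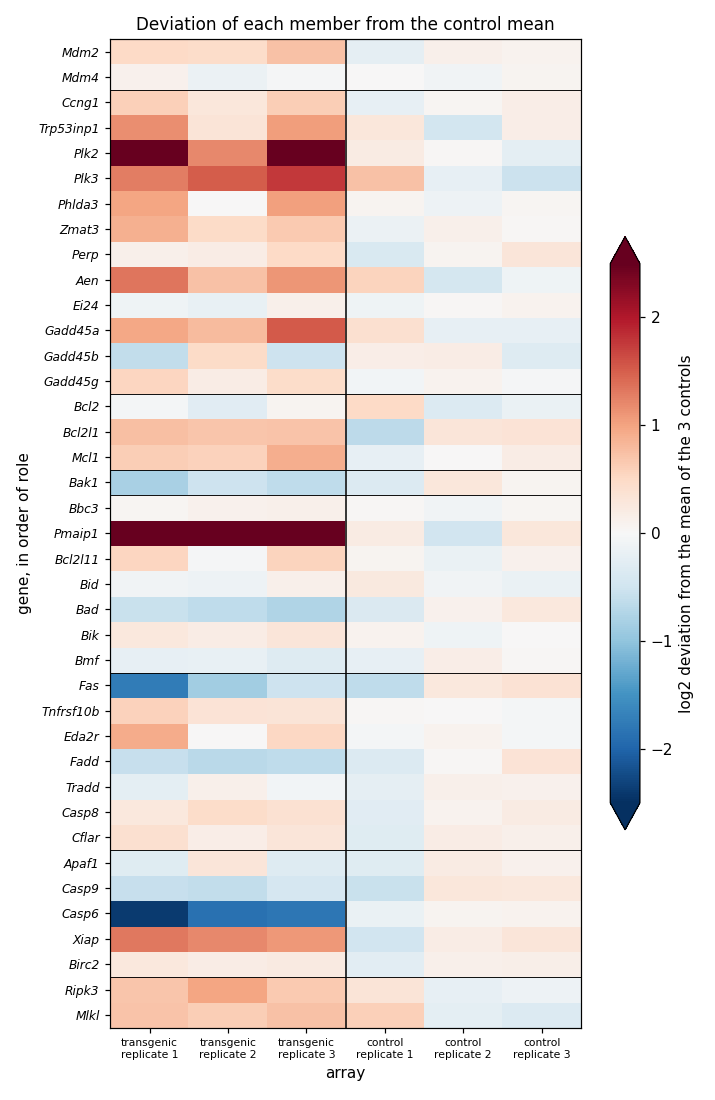
Each cell is the log2 deviation of 1 gene on 1 array from the mean of the 3 controls, with the 39 genes in order of role and the 3 transgenic arrays left of the controls; colours are cut at 2.5 in either direction. Pmaip1 is above and Casp6 below the control mean on all 3 transgenic arrays, and 9 of the 12 arrest and stress genes are lowest among these in transgenic replicate 2.

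Other genes of the pathway moved in both directions. Of 34 measured further p53 targets 7 rose and 7 fell, 20.6% each, where the shares of all genes were 8.97% and 9.65%, with a median difference of -0.05. A sex block left 6 called higher and 5 lower, where 5.36% and 5.47% of all genes did. Sesn2, an inhibitor of mTORC1 signalling, rose by 1.31 ± 0.14, Rrm2b, a ribonucleotide reductase subunit for DNA repair, by 1.17 ± 0.17 and the small GTPase gene Rap2b by 1.94 ± 0.31 (SE; adjusted p = 0.00477, 0.00923 and 0.0125). Pml, the nuclear body protein gene, was at -1.06 ± 0.11, Trp53i11 at -1.55 ± 0.20 and the iron reductase gene Steap3 at -0.84 ± 0.14 (SE; adjusted p = 0.00395, 0.00734 and 0.0146). With 1 array left out, the calls of Rap2b and Steap3 were lost (adjusted p up to 0.0585 and 0.0606, both without control replicate 3), and those of the other 4 held. Of the 6 such fits, 5 called Rap2b and 4 called Steap3.

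Of 28 measured genes that control p53, 1 rose and 4 fell, with a median difference of -0.13. These are shares of 3.57% and 14.3%, where 8.97% of all genes rose and 9.65% fell. Ppp1r13l, which encodes the p53 inhibitor iASPP, rose by 1.03 ± 0.13 (SE; adjusted p = 0.00691). The 4 that fell were the checkpoint kinase gene Chek2 at -0.97 ± 0.16, Trp53bp1 at -0.73 ± 0.11, the kinase gene Hipk2 at -0.79 ± 0.18 and Prkdc, the DNA-dependent protein kinase, at -0.56 ± 0.14 (SE; adjusted p = 0.0134, 0.0101, 0.034 and 0.0381). Leaving out transgenic replicate 3 ended the calls of Chek2 (adjusted p = 0.0607) and Prkdc (adjusted p = 0.121), the highest values with 1 array left out. For Hipk2 the highest adjusted p was 0.121, with control replicate 2 left out, and for Trp53bp1 it was 0.0518, with control replicate 3 left out. Of the 6 fits with 1 array left out, 5 called Chek2, 4 called Trp53bp1, and only 1 each called Hipk2 and Prkdc. Sex as a block ended the calls of Hipk2 and Prkdc (adjusted p = 0.0739 and 0.0816). It left 1 gene that rose and 2 that fell, where 5.36% and 5.47% of all genes did.

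Of 41 further genes of death machinery, 1 rose and 9 fell, with a median difference of -0.03, so that 2.44% of this list rose and 22% fell, where 8.97% and 9.65% of all genes did. Casp1, the inflammatory caspase gene, fell by 0.70, and Pycard, the inflammasome adaptor that activates it, by 1.79 (SE 0.07 and 0.31, adjusted p = 0.00401 and 0.0163). Of the mitochondrial death proteins, the protease gene Htra2 was at -0.84 ± 0.11 and Aifm1 at -0.60 ± 0.11 (SE; adjusted p = 0.00677 and 0.019). Casp12 fell to the level of absent transcripts, at -0.48 ± 0.11, and Dapk1, a death-associated kinase gene, rose by 0.50 ± 0.12 (SE; adjusted p = 0.0363 and 0.034). Leaving out transgenic replicate 3 ended the calls of Pycard (adjusted p = 0.0718) and Casp12 (adjusted p = 0.118). Those of Aifm1 and Dapk1 ended with control replicate 2 (adjusted p = 0.0761) and control replicate 3 (adjusted p = 0.112) left out. These were the highest values, and other arrays ended the calls too. Of the 6 fits with 1 array left out, only 2 each called Pycard, Casp12 and Aifm1, and 1 called Dapk1. With the replicate block Casp12 did not pass (adjusted p = 0.0581), and 6 genes of this list rose and 11 fell, where the shares of all genes were 12.7% and 13.1%. A sex block left none called higher and 4 lower, where 5.36% and 5.47% of all genes did, and Dapk1 and Casp12 did not pass (adjusted p = 0.0740 and 0.0831). Several of these genes are also expressed by lymphocytes, whose markers fell, and the part of that fall was not tested.

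Tnfsf10, the gene of the ligand TRAIL, was chosen after its values were seen because its receptor gene Tnfrsf10b rose. It had 5.68, 9.04 and 7.43 in the transgenic arrays, against 10.31, 10.50 and 10.43 in the control arrays. The controls lay close together while the transgenic arrays were spread widely, all below the controls. The difference of -3.03 ± 0.78 (SE) passed (adjusted p = 0.0451), but not without control replicate 1 (adjusted p = 0.0592), and 1 of the 6 fits with an array left out called it, as did the replicate block (adjusted p = 0.0235) but not sex as a block (adjusted p = 0.0970).

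**Figure D4:**
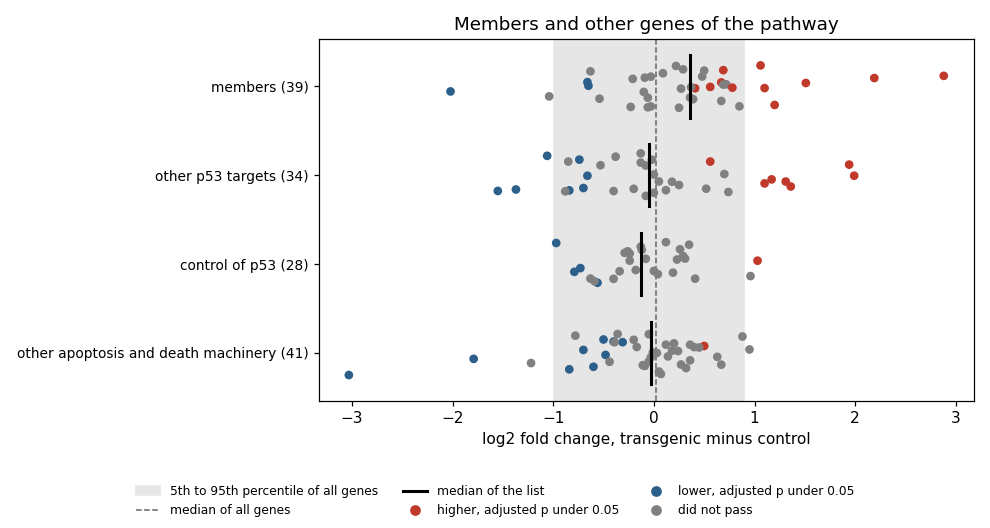
Log2 differences, transgenic minus control, are plotted for the 39 members and for 3 lists of other pathway genes, 1 point per gene. A black bar marks the median of each list, and the grey area is the percentile band of all genes named in the legend. The full range of all genes was wider, from -4.28 to 8.06. Red points rose, blue points fell and grey points did not pass. The members' median of 0.36 lies right of the medians of -0.05, -0.13 and -0.03 of the other lists.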

How the data were processed

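RNA of 3 transgenic and 3 control samples, titled biological replicates, was hybridised to Affymetrix Gene 1.0 ST arrays. The deposited values are log2 expression per probe set made by the authors with Partek and RMA, per the submitters' processing notes, with no versions or settings. RMA removes global shifts and compresses dim differences. Of 28350 probe sets, 21780 named 1 gene. Gene identifiers of 21689 of these were found in RefSeq (GRCm38.p6), which gave current symbols. The highest-mean probe set stood for each of 19933 genes, with no filter. Groups were compared across all genes with limma 3.58.1 in R 4.3.3, using lmFit and eBayes with group alone in the model, and two-sided p-values adjusted after Benjamini and Hochberg over these genes, with 0.05 as the threshold. Deviations of same-numbered arrays from their group means correlated by 0.52, 0.41 and 0.13, each above 0.1. Transgenic replicate 2 and control replicate 3 also correlated, by 0.32, above the pair of replicates 3, and the other pairs of unlike number by -0.44 to -0.01. No label says what the numbers share, so these correlations do not establish a pairing. The block was therefore used only as an alternative. The members and lists were chosen with earlier results of these data known. All members were described, and up to 6 genes with the lowest p were named from each further list. Promoters came from RefSeq. The number of arrays limits the precision. Other alternatives were averaging a gene's probe sets, a minimum mean of 5, median centring, renewed quantile normalization, a robust prior, an intensity trend, array weights, sex as a block, stricter thresholds and leaving out each array.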

Additional observations from a re-analysis of the deposited data

How the results depend on the processing

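All 14 called members kept their direction in the 15 alternative fits, and Pmaip1 and Casp6 kept their call in all of them. The counts of members that rose and fell were 17 and 7 with array weights, 5 and 1 with sex as a block, 1 and 1 at an adjusted p under 0.01, and 6 and 1 at 2-fold or more. An intensity trend ended the calls of Mdm2, Bak1 and Tnfrsf10b (adjusted p = 0.0547, 0.0568 and 0.0789). With a robust prior, which ended those of Aen, Bak1 and Bad (adjusted p = 0.0514, 0.0508 and 0.0507), 1 member fell. Renewed quantile normalization ended that of Bad (adjusted p = 0.0512). All genes called, 3710 in the reported fit, were 7072, 2159, 801 and 1429 with array weights, with sex as a block, under 0.01 and at 2-fold or more, in that order. With 1 array left out, 1 to 15 members rose and 1 to 7 fell, and 952 to 5542 genes were called. The replicate block changed the calls of Ccng1, Trp53inp1, Fas, Fadd and Bad (adjusted p = 0.0487, 0.00569, 0.00501, 0.0489 and 0.055) and no other member's. Msi2 passed with array weights (1.62) and ranged from 0.67 to 1.66 with 1 array left out. Only members near 0 changed sign. With array weights Bcl2 was at 0.15 and Bid at 0.09, with sex as a block they were at 0.04 and 0.03, and with renewed quantile normalization Bid was at 0.0064. With 1 array left out, Bcl2 ranged from -0.25 to 0.16, Bid from -0.12 to 0.09, Tradd from -0.17 to 0.03, Mdm4 from -0.09 to 0.03, Ei24 from -0.15 to 0.0096 and Apaf1 from -0.31 to 0.0032. The causes of these changes were not tested, nor was the part of power. Fits with fewer arrays have less power in general, and the genes called were 5542 without control replicate 1 and 4080 without transgenic replicate 2. Dim genes such as Eda2r and Bbc3 are limited by signal over background.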
